A study of Mus musculus with 33 samples.

Results

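Pax6, Rax, Six3, Six6, Lhx2, Sox2 and Fabp7 were followed in mouse retinal progenitor cells through cone-directed and rod-directed culture. They were picked by gene name as markers of the eye field and of retinal progenitors, and make up 7 of the 47729 genes in the deposited count tables. All 7 had enough counts to be tested. On mouse build GRCm38, Pax6 lies at chr2:105668900-105697364, Lhx2 at chr2:38339281-38369733, Sox2 at chr3:34650405-34652461, Fabp7 at chr10:57784881-57788450, Six6 at chr12:72939892-72944899, Six3 at chr17:85613608-85629302 and Rax at chr18:65934639-65939089. Rax lies on the minus strand and the others on the plus strand, and all are annotated as protein-coding.

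The eye field is the part of the anterior neural plate that becomes the eyes, and a small network of transcription factors marks it. Rax, Six3, Six6, Pax6 and Lhx2 belong to that network, and several of them stay on in dividing retinal progenitors and in Muller glia, the radial glia of the retina. Pax6 is also kept by amacrine, horizontal and ganglion cells. Sox2 is a transcription factor that keeps neural progenitors undifferentiated, and Fabp7 is a cytoplasmic fatty acid binding protein of radial glia and immature neural cells.

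Bulk RNA was sequenced from C57BL/6J retinal progenitor cells of embryonic day 14 retina, a wild-type strain with no allele or transgene in any group. The 33 libraries form 11 groups of 3. At day 0 the cells were untreated, cone primed with COCO protein (an extracellular inhibitor of several growth factor pathways) or rod primed with taurine and retinoic acid, and at days 5, 12, 21 and 35 they were under cone induction with COCO or rod induction with taurine and retinoic acid. The labels do not say whether the 3 libraries of a group came from separate animals or cultures, so p-values measure the spread between these libraries, which may be technical.

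Genes received 7511837 to 19166442 counts per library (median 12985662), and levels are given as CPM, counts scaled to a common TMM-adjusted library size. A floor of 3 counts, which covers counting error only, corresponded to 0.174 to 0.407 CPM. A gene was called in a comparison at a Benjamini-Hochberg adjusted p under 0.05 in edgeR's quasi-likelihood test over 18150 genes, and differences are log2 fold changes ± their standard error (SE). In replicate 2 of rod day 12 the summed CPM of 12 photoreceptor genes was 1160, against 84.2 and 168 in the others of its group. Other groups also held single high sums, such as 347 CPM against 91.7 and 91.9 CPM for the same genes at cone day 12.

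Marker lists were summed to describe the cells. The 12 Muller glia genes summed to between 581 and 679 CPM without treatment, 4288 to 5335 CPM at cone day 35 and 5312 to 8118 CPM at rod day 35. Over the same time the 12 photoreceptor genes went from 969 to 1294 CPM down to 32.3 to 58.0 CPM in cone day 35, with the short-wave cone opsin Opn1sw at 0 in all 3 libraries, and to 28.1 to 32.6 CPM in rod day 35, with Arr3, Nr2e3 and Rxrg at 0. The 14 amacrine and horizontal cell genes went from 762 to 852 CPM to 218 to 294 CPM (cone) and 199 to 245 CPM (rod), and the amacrine and horizontal cell factor Ptf1a was at 0 in both. The 8 mesenchyme genes summed to 1.36 to 18.9 CPM before treatment, to 1906 to 4987 CPM at cone day 35 and to 682 to 1465 CPM at rod day 35, and the 8 astrocyte genes to 9.40 to 24.2, 468 to 802 and 468 to 589 CPM. How far these lists bear on the members' values was not tested.

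**Figure D1:**
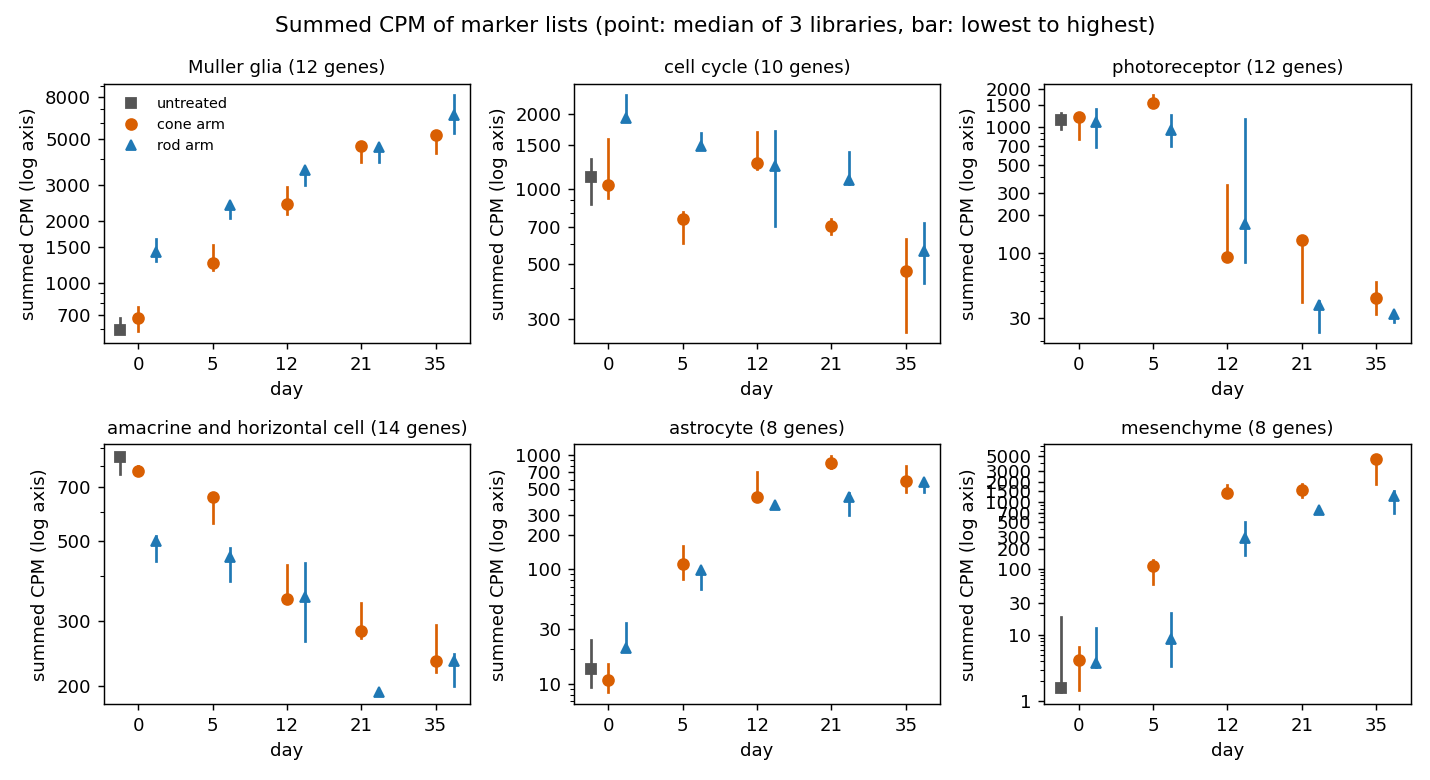
Summed CPM of 6 marker lists (log axes that differ between panels) by day, with untreated, cone and rod libraries marked by shape and colour, points at the median of 3 libraries and bars from the lowest to the highest. Muller glia, astrocyte and mesenchyme sums are highest late, photoreceptor sums fall from 695 CPM or more at day 0 to 58.0 CPM or less at day 35, and the rod day 12 bar for photoreceptor genes reaches 1160 CPM.

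By day 35 the 7 genes had changed in different ways. Fabp7 was nearly gone from both arms, at 0.477 ± 0.105 CPM (SD, n = 3) in cone and 0.843 ± 0.670 CPM in rod against 274 and 304 CPM in the primed cells. Rax and, in the cone arm, Six6 had fallen to a lower but well detected level. Lhx2 had risen in both arms, Sox2 had passed the test for a rise in the cone arm but not in the rod arm, Pax6 had fallen in the cone arm and risen in the rod arm, and Six3 ended within 0.10 log2 of its primed level in both. In bulk RNA, fewer cells that carry a transcript and less transcript per cell cannot be told apart.

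**Figure D2:**
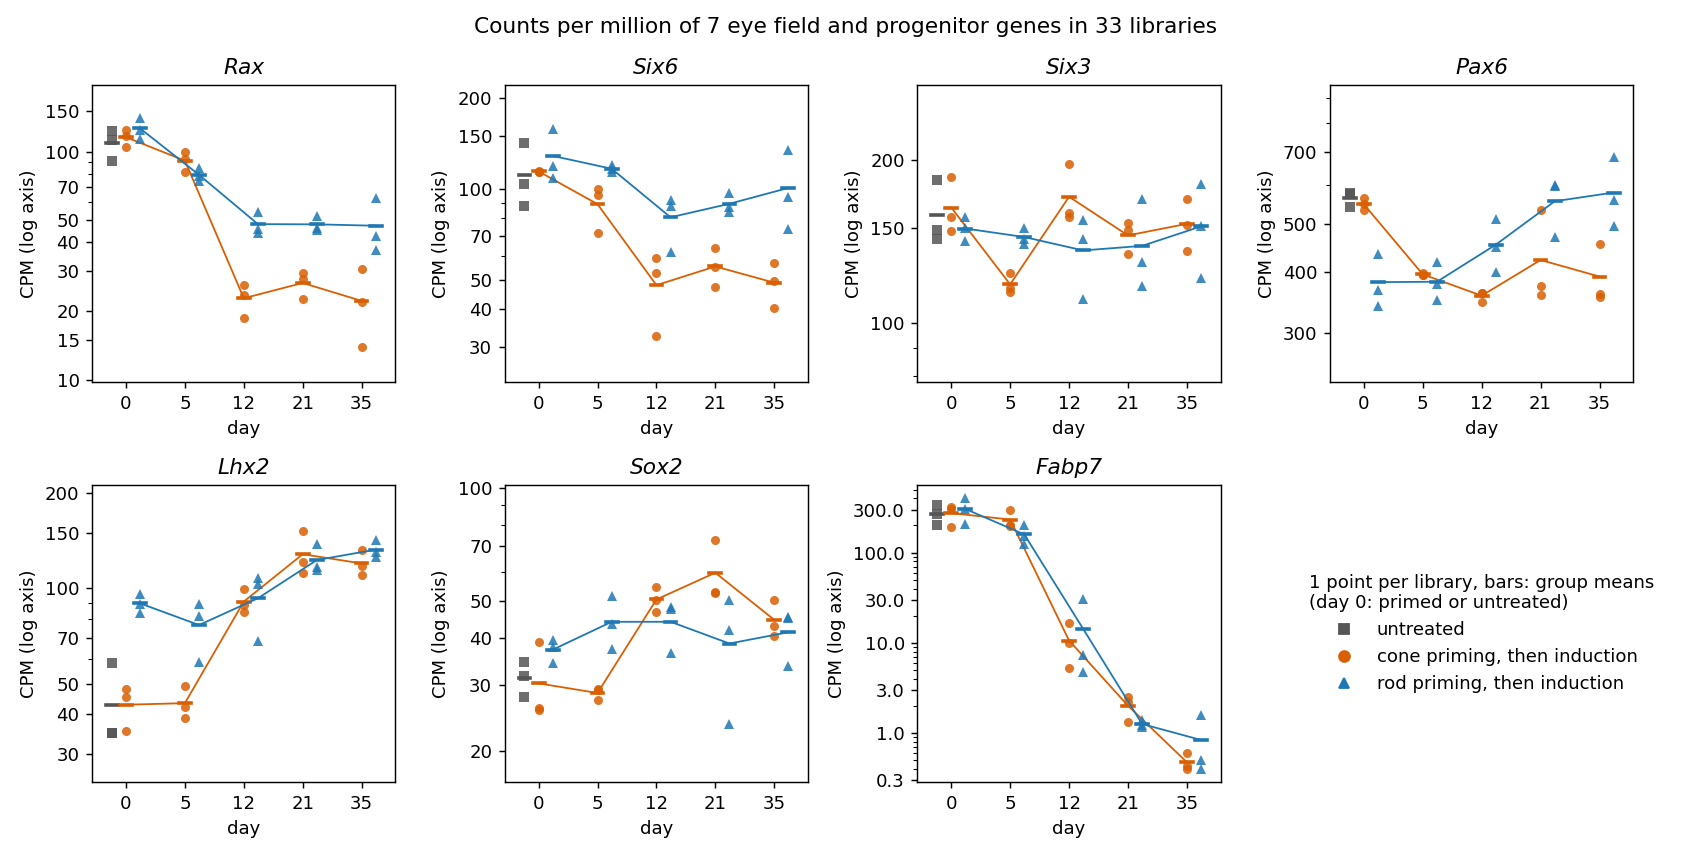
CPM (log axes that differ between panels) of the 7 genes by day, with days evenly spaced; each point is 1 library, short bars are group means, and lines join the means of the cone arm (orange circles) and of the rod arm (blue triangles), with untreated cells as grey squares. The highest and lowest group means differ 638.5-fold for Fabp7 and 1.45-fold for Six3.

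Levels were compared between genes only per kilobase of exon. In untreated cells Fabp7 was the highest, at 215 ± 53.6 CPM per kb, followed by Pax6 at 48.3 ± 1.74. Rax, Six3 and Six6 came next at 29.4, 29.1 and 27.8 CPM per kb with overlapping libraries, and Sox2 (15.2) and Lhx2 (9.74) were lowest, each apart from its neighbour in the order. By cone day 35 the order ran from Pax6 (33.4 CPM per kb) through Six3 (28.1) and Lhx2 (27.3), whose libraries overlapped in turn, to Sox2 (21.7), Six6 (12.2), Rax (5.96) and Fabp7 (0.381), each apart from the next. In rod day 35 Pax6 led at 49.5 CPM per kb, Lhx2, Six3, Six6, Sox2 and Rax followed with neighbours that overlapped, from 30.2 to 12.7, and Fabp7 was again last at 0.674. The place of Rax in these orders depends on its gene model, which has 3719 exon bases inside the span given in the files and 5846 in the longer model of GENCODE M21. With the longer one, tried after the data were seen, Rax stood at 18.7 CPM per kb in untreated cells, apart from Six6 above it and overlapping Sox2, and at 3.79 in cone day 35 and 8.09 in rod day 35, where its rank did not move but its libraries no longer overlapped those of Sox2 in rod.

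The number of the 7 genes called is read against the share of all 18150 tested genes called in the same comparison. Cone priming changed none of the 7 against untreated cells by edgeR at the adjusted threshold, at an unadjusted p under 0.05 or by DESeq2, and the share of all genes called was 0%. Rod priming changed 2 (Lhx2 higher, Pax6 lower), where 10.3% of all genes were called. That comparison and the day 0 comparison of cone with rod primed cells share the rod primed libraries. Against the rod arm of the same day, the cone arm differed in 2 genes at day 0 (7.27% of all genes), 2 at day 5 (9.28%) and 2 at day 12 (10.1%). The count was again 2 at day 21 (9%) and was 3 for day 35 (12.3%), and 3 genes also differed in the average over days 5 to 35 (27.8%).

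Against the cone primed cells, the cone arm had 2 of 7 called at day 5 (22.3% of all genes) and 6 of 7 at day 12 (48.4%), day 21 (52.6%) and day 35 (57.7%). Against the rod primed cells, the rod arm had 1 of 7 called at day 5 (17.5%) and 3 at day 12 (42.4%). It had 5 called at day 21 (50.8%), or 3 to 4 with any 1 library left out, and 4 at day 35 (55.6%). From one time point to the next, the step from day 5 to day 12 held 6 calls in cone (43.2%) and 2 in rod (18.3%), and the step from day 12 to day 21 held 1 in cone (3.36%) and 1 in rod (11.2%), which was Fabp7 both times. From day 21 to day 35 edgeR and DESeq2 called none in cone (0.915%) or in rod (1.54%), and at an unadjusted p under 0.05 there were 1 and 0. The median log2 change of the 7 genes was -0.49 at cone day 35 against 0.03 over all tested genes, and 0.01 at rod day 35 against 0.04.

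Rax, a homeobox factor that eye formation needs, fell in both arms and stood lower in cone than in rod from day 12 on. Its CPM was 123, 113 and 91.3 in the 3 untreated libraries, 125, 105 and 117 in cone primed and 140, 125 and 114 in rod primed cells. Those 9 libraries overlapped, and no comparison of the day 0 groups was called. The day 5 values were 81.4, 93.0 and 99.4 CPM in cone and 85.1, 74.4 and 77.8 CPM in rod, all below the primed cells of the same arm. The rod change at day 5 was called at -0.67 ± 0.19 (adjusted p = 0.0166), though not without rod primed replicate 1 or rod day 5 replicate 2 (adjusted p up to 0.0736).

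By day 12 the cone libraries held 23.6, 26.1 and 18.6 CPM of Rax and the rod libraries 45.9, 54.4 and 44.0. At day 21 the values were 27.6, 29.5 and 22.6 in cone against 46.2, 52.3 and 45.5 in rod, and at day 35 they were 13.9, 30.6 and 22.0 against 62.5, 37.0 and 42.5. Every rod library stood above every cone library on each of these days. The cone minus rod difference was -1.08 ± 0.20 at day 12 (adjusted p = 0.00065), -0.86 ± 0.20 at day 21 (0.00608) and -1.09 ± 0.20 at day 35 (0.00048), and each stayed called with any 1 library left out. Over the mean of days 5 to 35 it was -0.71 ± 0.10 (adjusted p = 4.0e-06). From primed cells to day 35 Rax fell by 2.38 ± 0.21 on the log2 scale in cone (5.21-fold lower, adjusted p = 1.8e-10) and by 1.42 ± 0.20 in rod (2.67-fold lower, adjusted p = 9.2e-07). From day 5 to day 12 it fell by 2.00 ± 0.20 in cone and by 0.72 ± 0.19 in rod (adjusted p = 0.0103, but 0.0518 without rod day 12 replicate 3), and neither arm had a called step after that.

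Six6, a homeobox factor of the optic vesicle and of proliferating retinal progenitors, fell in the cone arm and, at days 12 and 21, in the rod arm. Untreated libraries held 142, 104 and 88.0 CPM, cone primed 114, 114 and 115, and rod primed 119, 109 and 158, which overlapped. In cone the values were 100, 71.7 and 95.4 CPM at day 5, then 58.8, 52.5 and 32.6 at day 12, 63.6, 55.0 and 47.4 at day 21 and 49.5, 40.4 and 56.8 at day 35. In rod they were 116, 120 and 114 CPM at day 5, 61.9, 87.7 and 92.0 at day 12, 83.9, 96.8 and 87.2 at day 21 and 135, 73.6 and 93.7 at day 35.

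From day 5 on, all rod libraries lay above all cone libraries of their day for Six6. The cone minus rod difference was -0.39 ± 0.21 at day 5 (adjusted p = 0.285), -0.75 ± 0.22 at day 12 (0.0254), -0.69 ± 0.22 at day 21 (0.0433) and -1.04 ± 0.22 at day 35 (0.00179). The day 12 call was lost without cone day 12 replicate 3, rod day 12 replicate 2 or rod day 12 replicate 3 (adjusted p up to 0.172), and the day 21 call without any 1 of 5 libraries, all but cone day 21 replicate 1 (up to 0.163). Over the mean of days 5 to 35 the difference was -0.72 ± 0.11 (adjusted p = 1.1e-05), called with each of the 24 libraries left out in turn. Against the primed cells Six6 was lower by 1.23 ± 0.22 at cone day 35 (2.34-fold, adjusted p = 2.7e-05). In rod it was lower by 0.68 ± 0.21 at day 12 (0.0124) and by 0.53 ± 0.21 at day 21 (0.0407), and the day 35 difference of -0.36 ± 0.21 did not pass (0.158, but 0.0151 without rod day 35 replicate 1, the highest library). The 2 called rod falls also depended on single libraries, reaching adjusted p of 0.0904 without rod primed replicate 3 or rod day 12 replicate 1, and of up to 0.219 without rod primed replicate 3 or any 1 rod day 21 library.

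Six3, a homeobox factor and repressor of Wnt signalling in the anterior neural plate, was the most even of the 7. Group means lay between 118 CPM (cone day 5) and 171 CPM (cone day 12), a 1.45-fold span. The cone primed libraries held 157, 186 and 148 CPM, cone day 5 116, 114 and 124, and cone day 12 157, 160 and 197. Cone day 5 lay below both neighbours without overlap. It was 0.47 ± 0.15 lower than cone primed on the log2 scale (adjusted p = 0.0204, lost without cone primed replicate 2 or any cone day 5 library, up to 0.127), and cone day 12 was 0.54 ± 0.15 higher than cone day 5 (0.00399, but 0.0737 without cone day 12 replicate 3). No other comparison of Six3 was called. Its cone minus rod difference over days 5 to 35 was 0.03 ± 0.07 (adjusted p = 0.799).

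Pax6, a paired-box and homeobox factor needed for eye formation, differed by day and arm. It stood at 541, 578 and 575 CPM in untreated, 563, 532 and 547 in cone primed and 341, 368 and 434 in rod primed cells, so every rod primed library was below every other day 0 library. Rod priming lowered Pax6 by 0.57 ± 0.14 on the log2 scale (1.48-fold, adjusted p = 0.00897), a call lost without rod primed replicate 1 (0.0576). The sum of the 14 amacrine and horizontal cell genes was also lower there, at 438 to 514 CPM against 762 to 852 CPM, and so was that of the 10 ganglion cell genes, at 97.4 to 286 CPM against 312 to 534 CPM. Singly, 2 of the 14 and 1 of the 10 genes were called lower, where 3.56% of all genes were, and 0 higher. The part of those cells in the Pax6 difference was not tested. The cone minus rod difference at day 0 was 0.52 ± 0.14 (adjusted p = 0.0208), lost without cone primed replicate 1 or 3 or rod primed replicate 1 or 2 (up to 0.104).

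In cone induction Pax6 was lower than in cone primed cells at every day. The cone libraries held 394, 393 and 398 CPM at day 5, 348, 363 and 362 at day 12, 359, 533 and 375 at day 21 and 361, 456 and 356 at day 35. Only day 21 overlapped with the primed libraries, through replicate 2. The differences were -0.47 ± 0.14 at day 5 (adjusted p = 0.0155, over 0.05 without any 1 cone day 5 library, up to 0.0762), -0.61 ± 0.14 at day 12 (0.00065), -0.37 ± 0.14 at day 21 (0.0257) and -0.49 ± 0.14 at day 35 (0.00392). The day 21 call was lost without cone primed replicate 1 or 3 or cone day 21 replicate 1 or 3 (up to 0.122).

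In rod induction Pax6 went the other way. Rod libraries held 350, 377 and 418 CPM at day 5, 400, 512 and 449 at day 12, 471, 596 and 599 at day 21 and 682, 495 and 558 at day 35. The last 2 days lay above all rod primed libraries, by 0.54 ± 0.14 (adjusted p = 0.00194) and 0.60 ± 0.14 (1.52-fold, 0.00063). Their means, 556 and 578 CPM, compare with 565 CPM in untreated cells. On these 2 days the amacrine and horizontal cell sum was 192 to 194 and 199 to 245 CPM, below the 438 to 514 CPM of rod primed cells. The ganglion cell sum was 59.5 to 90.0 and 71.6 to 104 CPM, against 97.4 to 286 CPM. In cone, where Pax6 was lower, these sums were also lower at day 35 than in primed cells, at 218 to 294 and 77.2 to 137 CPM. The part of those cells was not tested. Cone minus rod was -0.34 ± 0.14 at day 12 (adjusted p = 0.124), -0.39 ± 0.14 at day 21 (0.0747) and -0.57 ± 0.14 at day 35 (0.00691). Single libraries decided these calls. Leaving out rod day 12 replicate 1 gave 0.0440 at day 12, leaving out cone day 21 replicate 2 or rod day 21 replicate 1 gave 0.00749 or 0.0354 at day 21, and leaving out rod day 35 replicate 1 gave 0.0757 at day 35. Over days 5 to 35 it was -0.31 ± 0.07 (adjusted p = 0.00111), called with each of the 24 libraries left out.

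Lhx2, a LIM-homeobox factor of the optic vesicle that Muller glia keep, rose early in the rod arm and late in the cone arm. It stood at 58.3, 34.9 and 35.0 CPM in untreated, 45.3, 48.1 and 35.4 in cone primed and 89.5, 83.6 and 96.1 in rod primed cells. All rod primed libraries were above the other 6. Rod priming raised Lhx2 by 1.08 ± 0.19 (2.11-fold, adjusted p = 0.00034), and the call held with each of the 6 libraries left out. In the same libraries the Muller glia sum was 1281 to 1643 CPM against 581 to 679 CPM, and the sum of 10 cell cycle genes 1880 to 2366 CPM against 868 to 1317 CPM. At day 35, where Lhx2 averaged 132.5 CPM in rod and 120 CPM in cone, the cell cycle sum was 417 to 726 and 266.5 to 628 CPM. The Muller glia sum was then 5312 to 8118 and 4288 to 5335 CPM. The part of these cells in the Lhx2 differences was not tested.

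The cone arm was still low at day 5, with 49.3, 38.9 and 42.1 CPM of Lhx2 against 89.2, 58.7 and 82.1 CPM in rod. It then rose to 84.2, 88.9 and 99.7 CPM at day 12, 152, 121 and 112 at day 21 and 132, 110 and 118 at day 35. The rod arm held 108, 68.4 and 103 CPM, 138, 114 and 117 CPM and 142, 130 and 126 CPM on those days, and the 2 arms overlapped from day 12 on. Cone minus rod was -1.06 ± 0.19 at day 0 (adjusted p = 0.00051) and -0.82 ± 0.18 at day 5 (0.00457), and no later day was called. The mean over days 5 to 35, -0.23 ± 0.09, missed the threshold (adjusted p = 0.0569, under 0.05 with any 1 of 6 of the 24 libraries left out). Cone libraries gained 1.48 ± 0.19 from primed cells to day 35 (2.79-fold, adjusted p = 1.6e-07). The rod gain was 0.45 ± 0.18 at day 21 (0.0403, up to 0.138 with 1 library left out, over 0.05 for 5 of 6) and 0.56 ± 0.18 at day 35 (1.48-fold, 0.0110, 0.0555 without rod day 35 replicate 1).

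The upstream sequences of Lhx2 and Fabp7 are shown because these genes had the largest rise (Lhx2, 1.58 at cone day 21) and the largest fall (Fabp7, -9.14 at cone day 35) from the primed cells among the 7. They come from RefSeq on GRCm38.p6, on the plus strand, and end just before the annotated start, chr2:38339031-38339280 for Lhx2 and chr10:57784673-57784880 for Fabp7. Capitals mark CG dinucleotides.
Lhx2: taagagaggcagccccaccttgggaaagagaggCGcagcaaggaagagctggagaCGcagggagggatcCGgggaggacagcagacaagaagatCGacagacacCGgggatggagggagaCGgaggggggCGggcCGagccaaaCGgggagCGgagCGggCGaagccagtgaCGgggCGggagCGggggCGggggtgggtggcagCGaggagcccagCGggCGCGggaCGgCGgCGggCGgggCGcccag
Fabp7: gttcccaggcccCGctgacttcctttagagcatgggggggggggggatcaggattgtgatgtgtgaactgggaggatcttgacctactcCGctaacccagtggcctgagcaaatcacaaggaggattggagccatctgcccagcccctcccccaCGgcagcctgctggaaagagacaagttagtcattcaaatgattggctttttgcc
The Lhx2 stretch holds 25 CG dinucleotides in 250 bases and the Fabp7 stretch 3 in 208.

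Over full 250-base windows upstream of RefSeq starts, Fabp7 had 4 CG dinucleotides, and 44.4% of the 32851 RefSeq mouse windows had 4 or fewer. Lhx2 had 25 at this start and 24 at a second start, Sox2 27, Six6 17, Pax6 15 at both of its starts and Six3 10, so Fabp7 had the fewest of the 6 members with a window. The median of all windows was 6. The Six3 window and the second windows of Lhx2 and Pax6 lie inside the gene spans given at the outset. The Fabp7 window runs past the annotated start of the gene. The motif AGGTCA, a half-site of nuclear receptors such as those for retinoic acid, was searched on both strands. It occurred once in the windows of Fabp7 and of Sox2 and in 14.0% of all windows. TAATTA, a core site of many homeobox factors, occurred in none of these windows and in 4.8% of all, and ACAAAG or ACAATG, which Sox factors bind, occurred once in Sox2 and once in 1 Pax6 window and in 25.2% of all. A match is a string in the sequence, not a measured site.

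Sox2 rose in the cone arm, while no rod day was called. Its CPM was 31.6, 27.8 and 34.6 in untreated, 25.7, 39.0 and 26.1 in cone primed and 34.3, 37.9 and 39.4 in rod primed cells, and these overlapped. Cone libraries then held 29.2, 29.1 and 27.3 CPM at day 5, 54.5, 46.8 and 50.5 at day 12, 73.0, 53.0 and 52.8 at day 21 and 50.5, 40.4 and 43.1 at day 35. All cone libraries from day 12 on lay above all cone primed libraries. The rises were 0.73 ± 0.20 at day 12 (1.66-fold, adjusted p = 0.0040), 0.97 ± 0.20 at day 21 (1.96-fold, 0.00025) and 0.56 ± 0.20 at day 35 (1.47-fold, 0.0212, up to 0.0975 without cone primed replicate 1 or 3 or cone day 35 replicate 1).

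Rod libraries held 51.6, 43.5 and 37.3 CPM of Sox2 at day 5, 47.8, 36.4 and 48.2 at day 12, 50.3, 23.6 and 42.0 at day 21 and 45.2, 33.6 and 45.4 at day 35, with the lowest value in replicate 2 at days 12, 21 and 35. Cone was below rod at day 5 by -0.63 ± 0.20 (adjusted p = 0.0493), which leaving out any 1 of the 6 libraries took over 0.05 (0.0543 to 0.239). At day 21 the groups again did not overlap, now with cone above rod, by 0.62 ± 0.20 (adjusted p = 0.0514, 0.0124 without rod day 21 replicate 1 and 0.283 at most). The mean over days 5 to 35 was 0.08 ± 0.10 (0.633).

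Fabp7 was lost in both arms between day 5 and day 21. It stood at 265, 338 and 204 CPM in untreated, 308, 194 and 320 in cone primed and 401, 306 and 207 in rod primed cells, all overlapping. Day 5 values were 199, 200 and 299 CPM in cone and 151, 203 and 124 CPM in rod. The rod libraries were all below rod primed, by -0.93 ± 0.42, which was not called (adjusted p = 0.122). The fall came by day 12, to 16.7, 9.86 and 5.34 CPM in cone and 4.71, 30.8 and 7.35 CPM in rod.

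From day 5 to day 12 Fabp7 fell 22.4-fold in cone (-4.48 ± 0.49, adjusted p = 6.9e-08) and 11.1-fold in rod (-3.47 ± 0.46, 8.2e-06). The 30.8 CPM belonged to the rod library with the high photoreceptor sum. Without it the rod day 12 mean was 6.03 CPM rather than 14.3, and the step from day 5 was -4.72 ± 0.42. From day 12 to day 21 the fall was -2.41 ± 0.58 in cone (adjusted p = 0.0212, up to 0.0927 without cone day 12 replicate 1 or any 1 cone day 21 library) and -3.50 ± 0.58 in rod (0.00057), or -2.25 ± 0.49 (0.0123) in rod without that library.

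Few reads remained by the last 2 time points. Cone day 21 libraries held 19, 26 and 18 counts of Fabp7 (2.49, 2.23 and 1.33 CPM) and rod day 21 libraries 18, 15 and 19 counts (1.39, 1.16 and 1.24 CPM). At day 35 there were 7, 5 and 5 counts in cone (0.597, 0.429 and 0.404 CPM) and 6, 5 and 25 in rod (0.510, 0.404 and 1.61 CPM), all above the floor of 3 counts. The change from primed cells to day 35 was -9.14 ± 0.68 in cone (564-fold lower, adjusted p = 1.2e-11) and -8.40 ± 0.63 in rod (337-fold lower, 3.1e-11). Without rod day 35 replicate 3, the library with 25 counts, the rod change was -9.37. Cone and rod overlapped on every day, and their mean difference over days 5 to 35 was -0.05 ± 0.33 (adjusted p = 0.945).

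**Figure D3:**
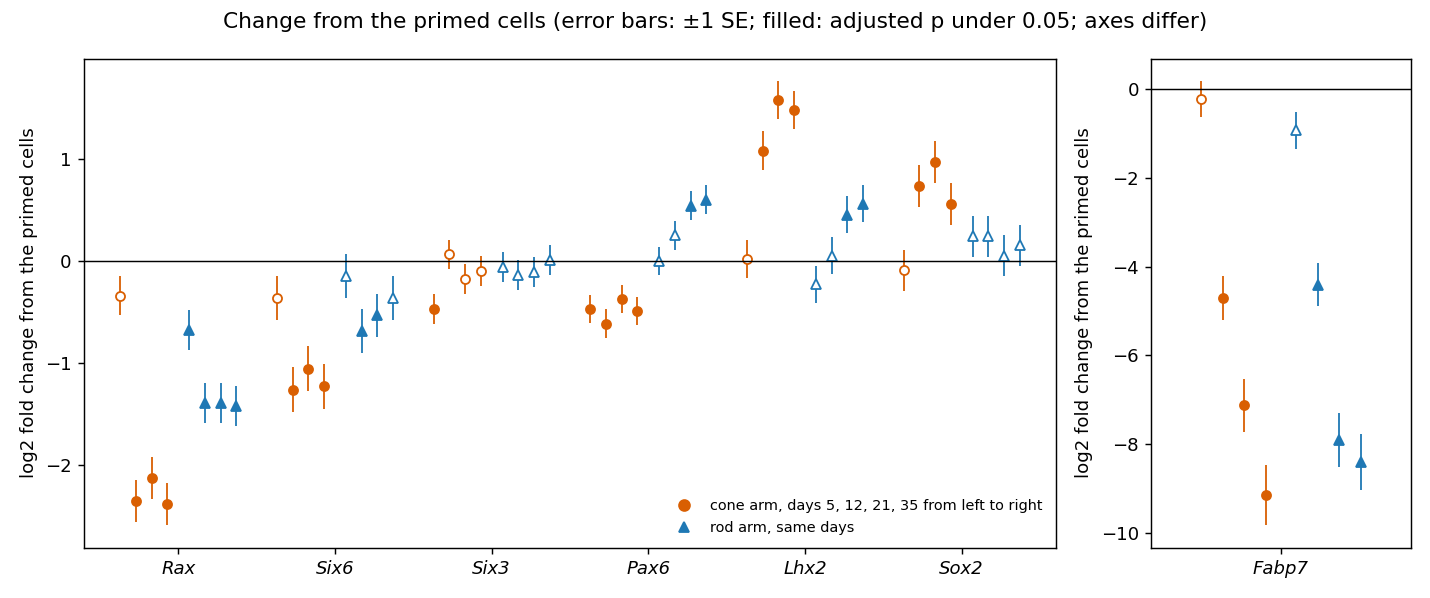
Log2 fold change from the primed cells of the same arm for each gene, days 5, 12, 21 and 35 from left to right, cone as orange circles and rod as blue triangles, with bars of ±1 SE and filled symbols for adjusted p under 0.05; Fabp7 has its own axis. Fabp7 reaches -9.14 in cone and -8.40 in rod, Lhx2 ends at 1.48 and 0.56, and Pax6 ends at -0.49 and 0.60.

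Whether the cone minus rod difference changed from day to day was tested with an F test on 4 degrees of freedom over days 0, 5, 12, 21 and 35. It was called for 4 of the 7 genes, where 9.22% of all genes were called. For Pax6 (adjusted p = 0.00288) the difference went from 0.52 at day 0 to -0.57 at day 35, and for Rax (0.00401) from within 0.21 of 0 at days 0 and 5 to between -0.86 and -1.09 later. Lhx2 (0.0102) started at -1.06 and lay between -0.14 and 0.06 from day 12, and Sox2 (0.0307) passed from -0.63 at day 5 to 0.62 at day 21. The calls of Pax6, Rax and Lhx2 held with each of the 30 libraries left out, and that of Sox2 was lost without any 1 of 5 of them, the 3 cone day 5 libraries, cone day 21 replicate 1 and rod day 5 replicate 1 (up to 0.0782). For Six6 the test gave 0.235, for Six3 0.246 and for Fabp7 0.582, so no change with day was called for these.

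**Figure D4:**
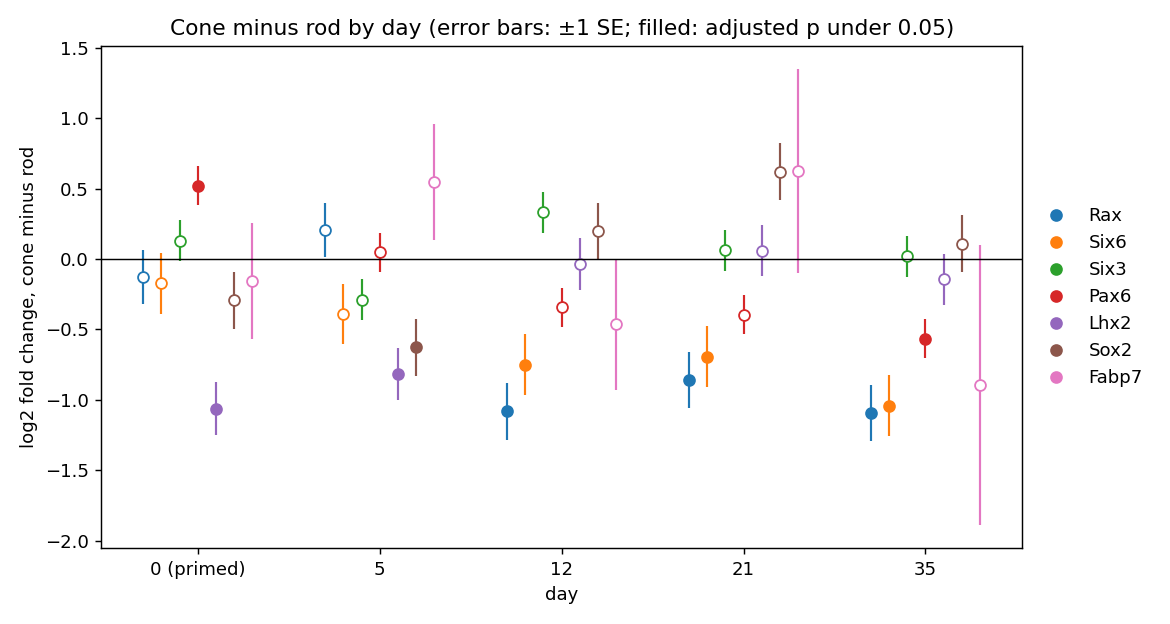
Cone minus rod log2 fold change of each gene at days 0, 5, 12, 21 and 35, with bars of ±1 SE and filled symbols for adjusted p under 0.05. Rax and Six6 lie between -1.09 and -0.69 from day 12 on, Lhx2 is filled only at days 0 and 5, and Pax6 is above 0 at day 0 and below 0 at day 35.

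The other genes of the eye field and of retinal progenitors were taken from a list of 40, all of them tested. Rod priming raised 12 of the 40 (6.71% of all genes rose) and lowered 2 (3.56% fell), with a list median of 0.39 against 0.00 over all tested genes. The cyclin Ccnd1 rose by 2.21 ± 0.24 (93.7 ± 17.9 to 433 ± 87.8 CPM, adjusted p = 3.7e-07) and the secreted Wnt modulator Sfrp2 by 2.21 ± 0.34 (64.1 to 295 CPM, 8.7e-05). Among the genes set to be named, the Notch target Hes1 (1.86 ± 0.22) and the intermediate filament gene Vim (1.28 ± 0.26) rose, while the Notch targets Hes5 (-1.53 ± 0.33) and Hey1 (-0.94 ± 0.27) fell. Sox9 (48.4 to 38.0 CPM) and Nr2e1 (19.4 to 31.0 CPM) were not called.

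Over days 5 to 35, 9 of the 40 were higher in cone than in rod (15.6% of all genes) and 16 lower (12.2%), with a list median of -0.23 against 0.01 over all genes. The T-box gene Tbx2, which marks the dorsal retina, was lower by -2.37 ± 0.13 (adjusted p = 3.4e-13), with group means of 36.3 to 51.5 CPM in cone and 178 to 247 CPM in rod. The forkhead gene Foxd1, of the ventral-temporal retina, was lower by -1.86 ± 0.24. Lhx9 was higher by 2.67 ± 0.58, and the SoxB1 gene Sox1 was higher in cone, with no count in any of the 3 rod libraries at day 21 or day 35, which made cone at least 6.26-fold higher at day 21 and at least 4.32-fold higher at day 35 against a floor of 3 counts per library. Nr2e1 (-1.10 ± 0.13), Hes1 (-0.66 ± 0.10), Sox9 (-0.30 ± 0.10) and Sfrp2 (-1.38 ± 0.42) were lower in cone, as Rax, Six6 and Pax6 were. Vim (0.55 ± 0.13) and Hes5 (2.08 ± 0.38) were higher, and Ccnd1 (0.24 ± 0.11, adjusted p = 0.128) was not called. Sfrp2 and Hes5 were near or below the floor of 3 counts in both arms at day 35. Their means over these days therefore rest in part on values near the floor.

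From cone primed cells to cone day 35, 15 of the 40 rose (31.1% of all genes) and 19 fell (26.5%), with a list median of -0.32 against 0.03. In rod, 14 rose (29.4%) and 17 fell (26.2%), with a list median of -0.18, or -0.03 with the genes at 0 set to their bound, against 0.04. Hmga2, a chromatin protein of early progenitors, rose in both arms, by 5.46 ± 0.43 in cone and, from 2.52 to 35.2 CPM, by 3.76 ± 0.40 in rod. The Wnt modulator Sfrp1 rose by 4.77 ± 0.38 and 3.44 ± 0.37.

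Foxn4, which promotes amacrine and horizontal cell fates, had no count at day 35, which put it at least 60.9-fold below the primed cells in the cone arm and at least 108.6-fold below them in the rod arm. Atoh7, which ganglion cells need, also had none and was at least 33.5-fold and at least 29.0-fold lower. Sfrp2 went from 77.4 CPM in cone primed cells to 1 to 2 counts per library and from 295 CPM in rod primed cells to 3 to 4 counts, and Hes5 went from 48.0 to 0.395 CPM in cone (-6.90 ± 0.48) and from 15.9 CPM to 0 to 3 counts per library in rod. Sox9 (1.10 ± 0.19 in cone, 1.85 ± 0.20 in rod) and Hes1 (2.59 ± 0.22 and 1.00 ± 0.21) rose in both arms. Vim and Ccnd1 rose in cone (2.29 ± 0.27 and 2.45 ± 0.24). In rod neither was called, with means of 898 and 1209 CPM for Vim (0.43 ± 0.25, adjusted p = 0.157) and of 433 and 350 CPM for Ccnd1 (-0.30 ± 0.23, 0.263), and the difference between the arms in this change was not tested on its own. Rod priming had already raised Vim and Ccnd1 over untreated cells, while cone priming changed no gene at the adjusted threshold. The primed levels that these changes start from thus differed between the arms. Nr2e1 was called in neither arm. The F test called 14 of the 40, where 9.22% of all genes were called.

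For each member the 3 genes whose mean log2 CPM over the 11 groups was most like its own were found among 11910 genes, by Pearson's r, as a description. For Pax6 these were Gpr27 (r = 0.949), Klhl3 (0.921) and Ebf1 (0.898), for Rax Rhobtb1 (0.990), Cacfd1 (0.988) and Wiz (0.978), and for Six6 Zfp518a (0.980), the eye gene Mab21l2 (0.972) and Klhdc8b (0.971). For Six3 they were Actr2 (0.888), Tceb1 (0.884) and Usp14 (0.856), for Lhx2 Hadh (0.985), Ttc23 (0.980) and Impa2 (0.976), and for Sox2 Tnfaip8 (0.910), Cotl1 (0.908) and Cdh2 (0.906). For Fabp7 they were Ankrd33b (0.994), Elovl4 (0.993) and Elovl2 (0.992), and 1258 genes reached r of 0.9 with it, against 505 for Rax, 500 for Lhx2, 51 for Six6, 3 for Sox2, 2 for Pax6 and none for Six3.

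Among the members themselves, Rax and Six6 were most alike over the 11 groups (r = 0.93), followed by Rax and Fabp7 (0.85) and by Lhx2 and Sox2 (0.77). Lhx2 ran opposite to Fabp7 (-0.86) and Rax opposite to Sox2 (-0.79) and Lhx2 (-0.72). Six3 had no r beyond 0.24 in size with another member. These 11 points are means over the same libraries for every gene.

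Several members share their locus with another transcript, and the strand setting of the counting is not given in the sources used here, so reads where the 2 overlap cannot be told apart. Six3os1 lies on the opposite strand, and its gene span, introns included, overlaps that of Six3 by 4791 bases. It held 229 ± 46.4 CPM in untreated cells. In cone it rose to 660 ± 90.0 CPM at day 12 (1.55 ± 0.18 from primed, adjusted p = 9.9e-08) and 403 ± 33.7 CPM at day 35. Six3 itself did not pass the test on those days. Six3os1 was also called higher than primed in rod on all 4 days (0.47 to 1.04), with 659 CPM at day 12. At day 5 it was lower in cone than in rod (-1.12 ± 0.18, adjusted p = 0.00018), 314 against 683 CPM. The span of the gene opposite to Six6, 4930447C04Rik, overlaps that of Six6 by 883 bases, introns included. This gene was lower in cone than in rod over days 5 to 35 (-0.60 ± 0.13, adjusted p = 0.00074), as Six6 was. Against the primed cells, though, it was higher in rod on all 4 days (1.01 to 1.15), where Six6 was lower or not called. Pax6os1 held 1.93 to 6.00 CPM in the group means, well under the 358 to 578 CPM of Pax6. Sox2ot, within which Sox2 lies on the same strand, held 10.1 to 18.3 CPM in the group means, and Sox2 28.5 to 59.6 CPM. In untreated cells Sox2ot stood at 14.47 CPM and Sox2 at 31.35 CPM.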

How the data were processed

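Whole-number read counts per gene were deposited by the authors for each of the 33 libraries. The submitters' processing notes name HISAT2, StringTie, HTSeq and build GRCm38, with no versions, and the strand setting is not given in the sources used here. The 7 genes and all gene lists were chosen with earlier results of these data known. Summary lines that name no gene were left out, and genes took 26.9 to 34.9% of all counted reads. Genes were kept with edgeR's filterByExpr (minimum count 10), scaled by TMM and tested with edgeR 4.0.16 quasi-likelihood tests in R 4.3.3, 1 model over all 33 libraries with a term per group and Benjamini-Hochberg adjustment over 18150 genes.

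TPM values deposited by the authors served only as an alternative, as log2(TPM + 1) in limma 3.58.1. They list Fabp7 at 0 in 21 libraries, 7 of which hold 100 or more counts of it, and also list Rax (4 libraries) and Lhx2 (2 libraries) at 0. The other alternatives were DESeq2 1.42.0 and its size factors, limma voom with quality weights, other filters on low counts, only the compared libraries, a replicate block and each library left out in turn. Named besides the 7 genes were the 3 genes most like each, the overlapping genes, 7 genes of the list of 40 (Nr2e1, Hes1, Hes5, Ccnd1, Sfrp2, Vim, Sox9; 1 other is not reported here) and its 2 largest rises and falls per comparison. Atoh7 in rod was named after its values were seen.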

Additional observations from a re-analysis of the deposited data

Results flagged for a closer look

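For 4 of the 7 genes the cone minus rod difference was not the same on all 5 days (0, 5, 12, 21 and 35), by the F test on 4 degrees of freedom in edgeR with Benjamini-Hochberg adjustment over all genes. The same test called 9.22% of all genes. The adjusted p was 0.00288 for Pax6, which was higher in cone at day 0 (0.52) and lower at day 35 (-0.57). It was 0.00401 for Rax, with differences of -0.13 at day 0, 0.21 at day 5 and -1.08 at day 12. For Lhx2 it was 0.0102, with -1.06 at day 0 and -0.03 at day 12, and for Sox2 0.0307, with -0.63 at day 5 and 0.62 at day 21. With 3 libraries per group, no single library was tested for standing apart from its group.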

How the results depend on the processing

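Of the 63 calls of single genes, 63 held with DESeq2, 62 each with DESeq2's size factors, a mean of at least 1 CPM or voom, 61 without a filter and 57 with only the compared libraries. Deviations from the group mean had a median r of 0.016 between same-number libraries, over 0.1 in 48 of 165 pairs, against -0.011 for other numbers. On average 19 of 33 libraries were closest to their own number, so the replicate numbers may pair the libraries in part. The replicate block kept 63 of 63 calls. It added 2, Sox2 for cone against rod at day 21 (0.63, adjusted p = 0.0330, 3 of the 7 genes called rather than 2) and Lhx2 for the mean of days 5 to 35 (-0.23, 0.0234, 4 rather than 3).

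The number of the 7 genes called moved as follows. For cone against rod, day 5 gave 1 with DESeq2's size factors, without a filter or with a mean of at least 1 CPM. Those fits called 1625, 1468 and 1650 of all the genes they tested, against 1685 in the main fit. Day 5 gave 4 with only the compared libraries, where 2836 of all genes were called. With those libraries days 12 and 35 gave 1, where 345 and 1454 of all genes were called against 1833 and 2229 in the main fit. Day 21 gave 4 with voom or DESeq2, which called 3699 and 2021 of all genes against 1633. With the compared libraries cone day 5 against primed gave 4 (5012 of all genes against 4056) and rod day 5 gave 2 (3903 against 3185). Rod day 21 against day 12 gave 0, where that fit called 1 of 18150 genes against 2027 with all libraries. With voom, cone day 21 against day 12 gave 0 (818 of all genes against 610) and rod day 5 against primed 2 (4896 against 3185). Voom also gave 5 for rod day 12 against primed (11187 against 7701) and 2 for rod day 21 against day 12 (5892 against 2027). Of the list of 40, voom called 22 under rod priming, where it called 3768 of all 18150 genes against 1864. The cause was not tested.

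Of 61 single-gene calls compared, deposited TPM kept 3, while 53 were no longer called and 5 reversed. It gave 0 calls among the 7 genes in every comparison with calls, except 1 each at cone day 5 and cone day 12 against primed and rod day 12 against day 5, and 3 at cone day 12 against day 5. Of all 18150 genes it called 1275, 938, 184 and 1366 in those comparisons, in that order, against 4056, 8784, 3318 and 7840 in the main fit. From the list of 40 it called 1 under rod priming, 6 in the mean of cone against rod, 8 at cone day 35, 5 at rod day 35 and 0 in the F test. There it called 46, 281, 963, 710 and 48 of all genes, against 1864, 5048, 10467, 10089 and 1674 in the main fit. Only with TPM did directions reverse, for Pax6 at cone day 5 (0.90) and day 21 (0.010), Six3 at cone day 5 (0.87), Rax at rod day 5 (0.27) and Lhx2 at rod day 35 (-0.33), all against primed cells. TPM lists members at 0 where counts are high, and the cause was not tested.

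Leaving out 1 library kept 469 of 528 calls and reversed 0. The number of the 7 genes called ranged from 1 to 2 under rod priming, for cone against rod at day 0 and for rod day 12 against day 5, was 1 for cone against rod at day 5, and ranged from 1 to 3 at days 12 and 21 and 2 to 3 at day 35. It ranged from 0 to 2 at cone day 5, 0 to 1 at rod day 5, 2 to 3 at rod day 12 and 3 to 4 at rod day 21 against primed, 0 to 1 for cone day 21 against day 12 and 3 to 4 in the F test. The list of 40 gave 9 to 13 under rod priming and 10 to 15 in the F test. Depth limits Fabp7 at day 35, where 5 to 25 counts per library carry its level.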
